A study of Danio rerio with 24 samples.

Results

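The Wnt genes described here are the ligands, receptors, secreted antagonists, R-spondins, axins and nuclear factors of the Wnt pathway in zebrafish embryos treated with TP-0903, an inhibitor of several kinases. Members were chosen by gene name: every gene whose deposited name begins with wnt, fzd, dkk or rspo and a number, or with sfrp, frzb, axin1, axin2, lrp5, lrp6, ror1, ror2, lef1, tcf7, porcn, wif1, notum, znrf3 or rnf43. The rule uses no measured value. It found 61 genes among the 19372 listed at any time point, namely 20 ligands (with the enzyme genes porcn and porcnl), 18 receptors, 12 secreted antagonists, 4 R-spondins and ligases, 2 axins and 5 nuclear factors. No listed gene matched rnf43, and 4 gene names that fit the pattern were left out.

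The study asked how TP-0903 changes transcription while neural crest cells leave the neural tube. Embryos of the line that the labels call Tg(snail1b:GFP), which carries GFP under a promoter fragment of that gene, were placed in TP-0903 or in its solvent DMSO at 8 somites, 13 h post-fertilization (hpf), and were kept at 28°C. They were collected after 1 h (10 somites, 14 hpf), 4 h (16 somites, 17 hpf) or 8 h (21 somites, listed as 19.5 hpf, an age that falls short of 13 hpf plus 8 h). Each of the 6 groups holds 4 libraries of 35 pooled whole embryos, 24 in all, every embryo carries the reporter, and the dose is not given in the labels. A value is therefore a mean over all tissues of a pool, in which fewer cells of a type and less RNA per cell cannot be told apart. The labels do not say whether the libraries of a group came from separate clutches, so p-values measure the spread between these pools.

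Wnt proteins are secreted, lipid-modified ligands that bind Frizzled receptors. With the co-receptors Lrp5 and Lrp6 they stabilise beta-catenin, which acts at target genes together with Tcf and Lef factors, whereas with Ror receptors or planar polarity proteins they steer cell movement without beta-catenin. Several Dkk proteins and the Sfrp, Wif1 and Notum proteins restrain the signal outside the cell. R-spondins strengthen the signal by withdrawing the ligases Znrf3 and Rnf43. The genes axin2, notum1a, znrf3, dkk1b and lef1 are widely used as feedback targets. In vertebrate embryos the pathway is known for its part in neural crest induction, tail growth, brain patterning and convergent extension.

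Assigned reads per library ranged from 3879310 to 10536420, with the lowest group median, 4235556, in DMSO at 1 h. Spread was uneven at 1 h, when DMSO replicate 4 and TP-0903 replicate 3 stood apart from the other libraries along an axis that held 70.8% of the variance within groups. The label of 21 somites was checked against markers of the tailbud and presomitic mesoderm, where segmentation clock genes are known to be active. Their summed normalised read count, in counts scaled to library size (CPM), was 550.8 to 853.9 in DMSO at 1 h and 349.4 to 492.7 at 4 h (7 genes), but 12.76 to 37.82 in DMSO and 6.509 to 8.419 in TP-0903 at 8 h (6 genes). At 8 h the clock gene her1 had 0 counts in 2 DMSO and 2 TP-0903 libraries, and DMSO replicate 3 held the highest counts of her1, msgn1 and tbx6. The 8 h libraries thus nearly lacked these defining markers in both treatments, and the 8 h table carries another sequencing request number than the 1 h and 4 h tables. Stage, request and tissue content cannot be told apart in any comparison of 8 h with 4 h.

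**Figure D1:**
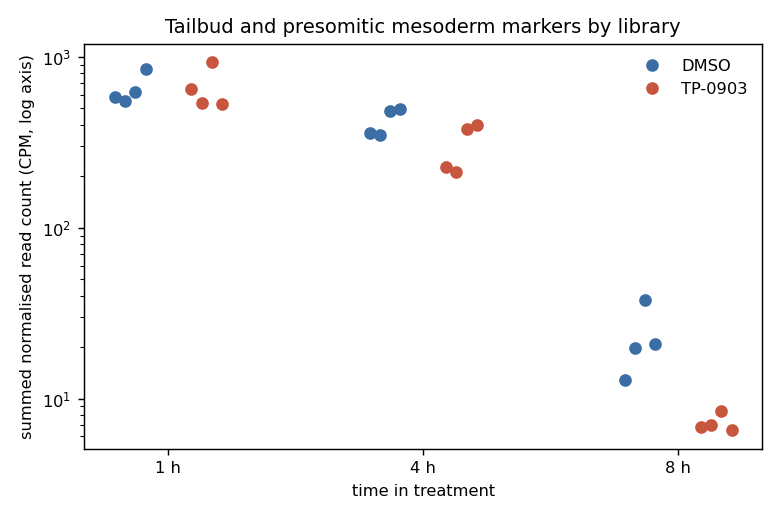
Summed normalised read count (CPM, log axis) of the tailbud and presomitic mesoderm markers in each of the 24 libraries, by time in treatment; each point is 1 library. All 8 h libraries lie at 37.82 or below, whereas the DMSO libraries at 1 h and 4 h lie at 349.4 or above.

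To find out whether Wnt genes responded within the first hour, TP-0903 was compared with DMSO at 1 h. None of the 52 members that passed the low-count filter met an adjusted p of 0.05 by edgeR's quasi-likelihood test, where 0 of 15530 genes (background 0%) did. By DESeq2, 0 members and 13 genes passed, and 1 member, fzd9b, had an unadjusted p under 0.05 by edgeR, beside a background of 1.38%. Median log2 fold change was -0.008 over the members and 0.005 over all genes. The groups did not overlap for 2 members, wnt11r and dkk3b, both higher with TP-0903, against a background of 1.49% of genes in either direction, 0.786% higher and 0.702% lower. For wnt11r, a ligand of the Wnt11 family known in zebrafish for heart and muscle development, the DMSO libraries held 79.0, 76.5, 76.2 and 74.3 CPM and the TP-0903 libraries 101.2, 88.0, 86.4 and 85.4 CPM. Every treated library thus lay above every control, yet the difference, 1.18-fold, had an adjusted p of 1. Receptors with a wide spread at 1 h, such as the co-receptor lrp5, were low in the pair of libraries that stood apart, at 73.8 CPM in DMSO replicate 4 and 70.3 CPM in TP-0903 replicate 3. A fit without both libraries called 5 genes and 0 members.

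At 4 h, 4 of 54 members (7.4%) differed between the treatments, all higher with TP-0903, where the background was 0.740% of 15953 genes in either direction and 0.495% higher. They were the ligands wnt11 and wnt11r, the receptor ror1 and the antagonist sfrp2. No member was called lower, although the members' median log2 fold change was -0.08 and only 20 of the 54 estimates were above 0, beside a median of 0.00 over all genes. The unadjusted p was under 0.05 for 16 members (29.6%; background 9.43%).

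The name wnt11 stands here for ENSDARG00000004256, which the current gene table lists as wnt11f2; this ligand is known in zebrafish for guiding convergent extension during gastrulation. Its level was 6.27, 6.58, 6.74 and 8.54 CPM in the DMSO libraries and 17.8, 15.0, 12.2 and 10.5 CPM in the TP-0903 libraries. No library overlapped, and the TP-0903 level was 1.95-fold higher (log2 fold change 0.96, SE 0.18, adjusted p = 0.0341, n = 4 per group). In DMSO embryos wnt11 had fallen from 16.5 ± 5.25 CPM at 1 h to 7.03 ± 1.02 CPM at 4 h (SD, n = 4), so the 4 h TP-0903 level of 13.9 ± 3.20 CPM lay between both.

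The related ligand gene wnt11r measured 68.3, 65.5, 75.0 and 72.0 CPM with DMSO and 92.8, 91.7, 99.1 and 92.2 CPM with TP-0903. As at 1 h, each treated library exceeded each control, here by 1.34-fold (log2 fold change 0.42, SE 0.08, adjusted p = 0.0286). Ror1 is a receptor tyrosine kinase family member that takes part in beta-catenin-independent Wnt signalling. Its gene was read at 29.8, 34.0, 27.9 and 31.8 CPM in DMSO and at 55.9, 47.8, 40.0 and 44.6 CPM in TP-0903 libraries, without overlap and 1.52-fold higher (SE 0.11 on the log2 scale, adjusted p = 0.0341). The secreted Frizzled-related gene sfrp2, whose protein binds Wnts outside the cell, stood at 12.3, 11.9, 9.82 and 12.2 CPM in DMSO and at 19.6, 24.2, 17.1 and 17.5 CPM after TP-0903. All treated libraries were higher, by 1.69-fold (SE 0.14 on the log2 scale, adjusted p = 0.0286), and they lay within the range of the DMSO libraries at 8 h, 16.2 to 22.2 CPM, apart from replicate 2.

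These 4 calls sat close to the threshold. Leaving out a DMSO library, whichever of the 4, or TP-0903 replicate 1 left 0 calls. Leaving out TP-0903 replicate 4 left 2 of them, and leaving out TP-0903 replicate 3 left 3. The fit without TP-0903 replicate 2 called 3 members, but wnt11 and ror1 were lost and a member outside the 4 was called. The lowest log2 fold change in those fits was still 0.82 for wnt11, 0.64 for sfrp2, 0.52 for ror1 and 0.39 for wnt11r. DESeq2 called the same 4 members and ror2.

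**Figure D2:**
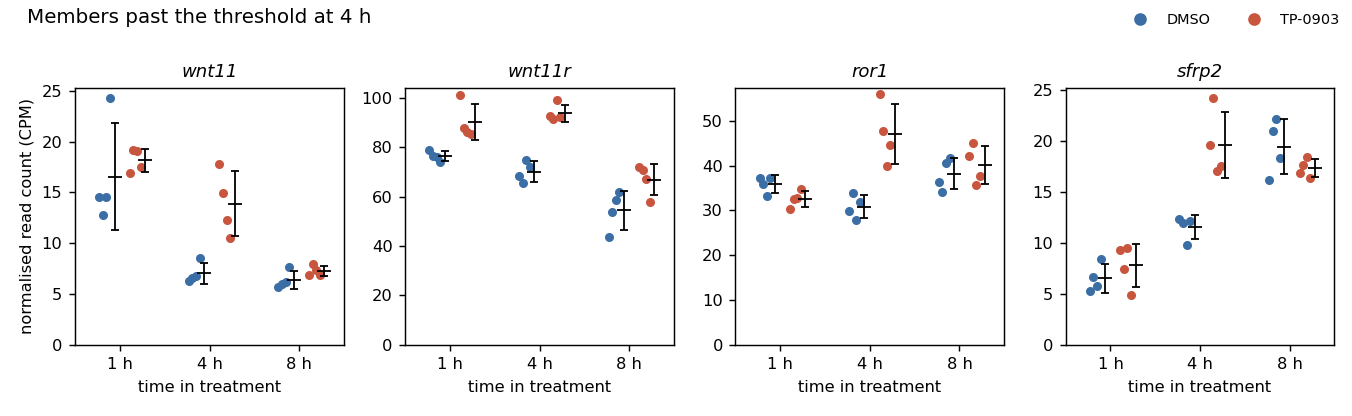
Normalised read count (CPM) of the 4 members past the threshold at 4 h, by time in treatment; points are libraries (blue DMSO, red TP-0903), and the black bar with whiskers gives mean and SD of 4 libraries. At 4 h the groups do not overlap in any panel, and wnt11r also does not overlap at 1 h.

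Counted by overlap alone, 12 of 54 members (22.2%) had groups that did not overlap at 4 h, beside a background of 6.39% in either direction, 3.51% higher and 2.88% lower. The 7 that were higher comprised, beside the 4 called genes, the receptors fzd4 and ror2 and the antagonist sfrp1a. The second Ror receptor, ror2, measured 49.4 to 54.3 CPM in DMSO and 57.7 to 73.2 CPM with TP-0903 (log2 fold change 0.36, adjusted p = 0.128), and fzd4 measured 20.0 to 23.0 against 25.1 to 38.1 CPM (0.52, adjusted p = 0.157). The 5 that were lower were axin2, frzb, rspo2, tcf7l1a and tcf7l2. The scaffold gene axin2, a standard readout of beta-catenin signalling, was at 147, 132, 150 and 149 CPM in DMSO and 125, 106, 131 and 130 CPM with TP-0903, a gap of less than 1 CPM between the nearest libraries, and its log2 fold change of -0.23 had an adjusted p of 0.457. The Wnt-binding antagonist gene frzb held 91 reads over the DMSO libraries and 26 over the TP-0903 libraries (log2 fold change -1.44, adjusted p = 0.106). It passed the low-count filter only through the DMSO libraries, which limits what its estimate and its place among the 12 can show. All 5 nuclear factor genes had negative estimates, from -0.48 to -0.19, and none passed the test. For tcf7l2, lrp5 and fzd7b the lowest 4 h value was in TP-0903 replicate 2, at 13.1, 79.8 and 73.4 CPM.

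Markers of other tissues were read beside these values. At 4 h the background was 0.740% of genes called, 0.495% higher and 0.244% lower. The tailbud and presomitic markers had a median log2 fold change of -0.62. Of these 7 genes 1, msgn1, was called lower, a call lost without DMSO replicate 3 or 4. The summed level of the 7 genes in replicates 1 to 4 was 356.8, 349.4, 482.8 and 492.7 CPM with DMSO. With TP-0903 it was 227.0, 211.1, 380.0 and 401.7 CPM. The ranges overlapped, and replicates 1 and 2 were the lower ones in both treatments. Each TP-0903 library lay below the DMSO library of the same number, but the labels give no shared origin for such libraries. Of 6 midbrain-hindbrain boundary markers fgf8a alone was called, higher by 0.55 on the log2 scale, and no neuron, skeletal muscle, epidermis or neural crest marker was called at 4 h by edgeR. Whether fewer tailbud cells had a part in the lower values of axin2, frzb or the Tcf genes was not tested.

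At 8 h, 20 of 58 members (34.5%) differed between the treatments, which is close to the background of 28.9% of 17478 genes. Of these, 6 were higher (10.3%; background 15.4%) and 14 lower (24.1%; background 13.5%). Apart from wnt4b, dkk2 and wnt7ba, the called genes had log2 fold changes between -1.02 and 0.53. The genes wnt4b, dkk2 and wnt7ba had few reads. Each passed the low-count filter only through the treatment in which it was higher. That limits what the size of its change, the gap between its groups and its adjusted p can show. All of them are still counted among the 20 called members. The unadjusted p by edgeR was under 0.05 for 23 members (39.7%), much like the background of 40.0%. The members' median log2 fold change was 0.00, as was that of all genes (-0.01). The calls fell on ligands (3 higher and 5 lower of 19 tested), receptors (4 lower of 18), secreted antagonists (1 higher and 3 lower of 10), R-spondins and ligases (1 lower of 4) and nuclear factors (2 higher and 1 lower of 5), and on neither axin.

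**Figure D3:**
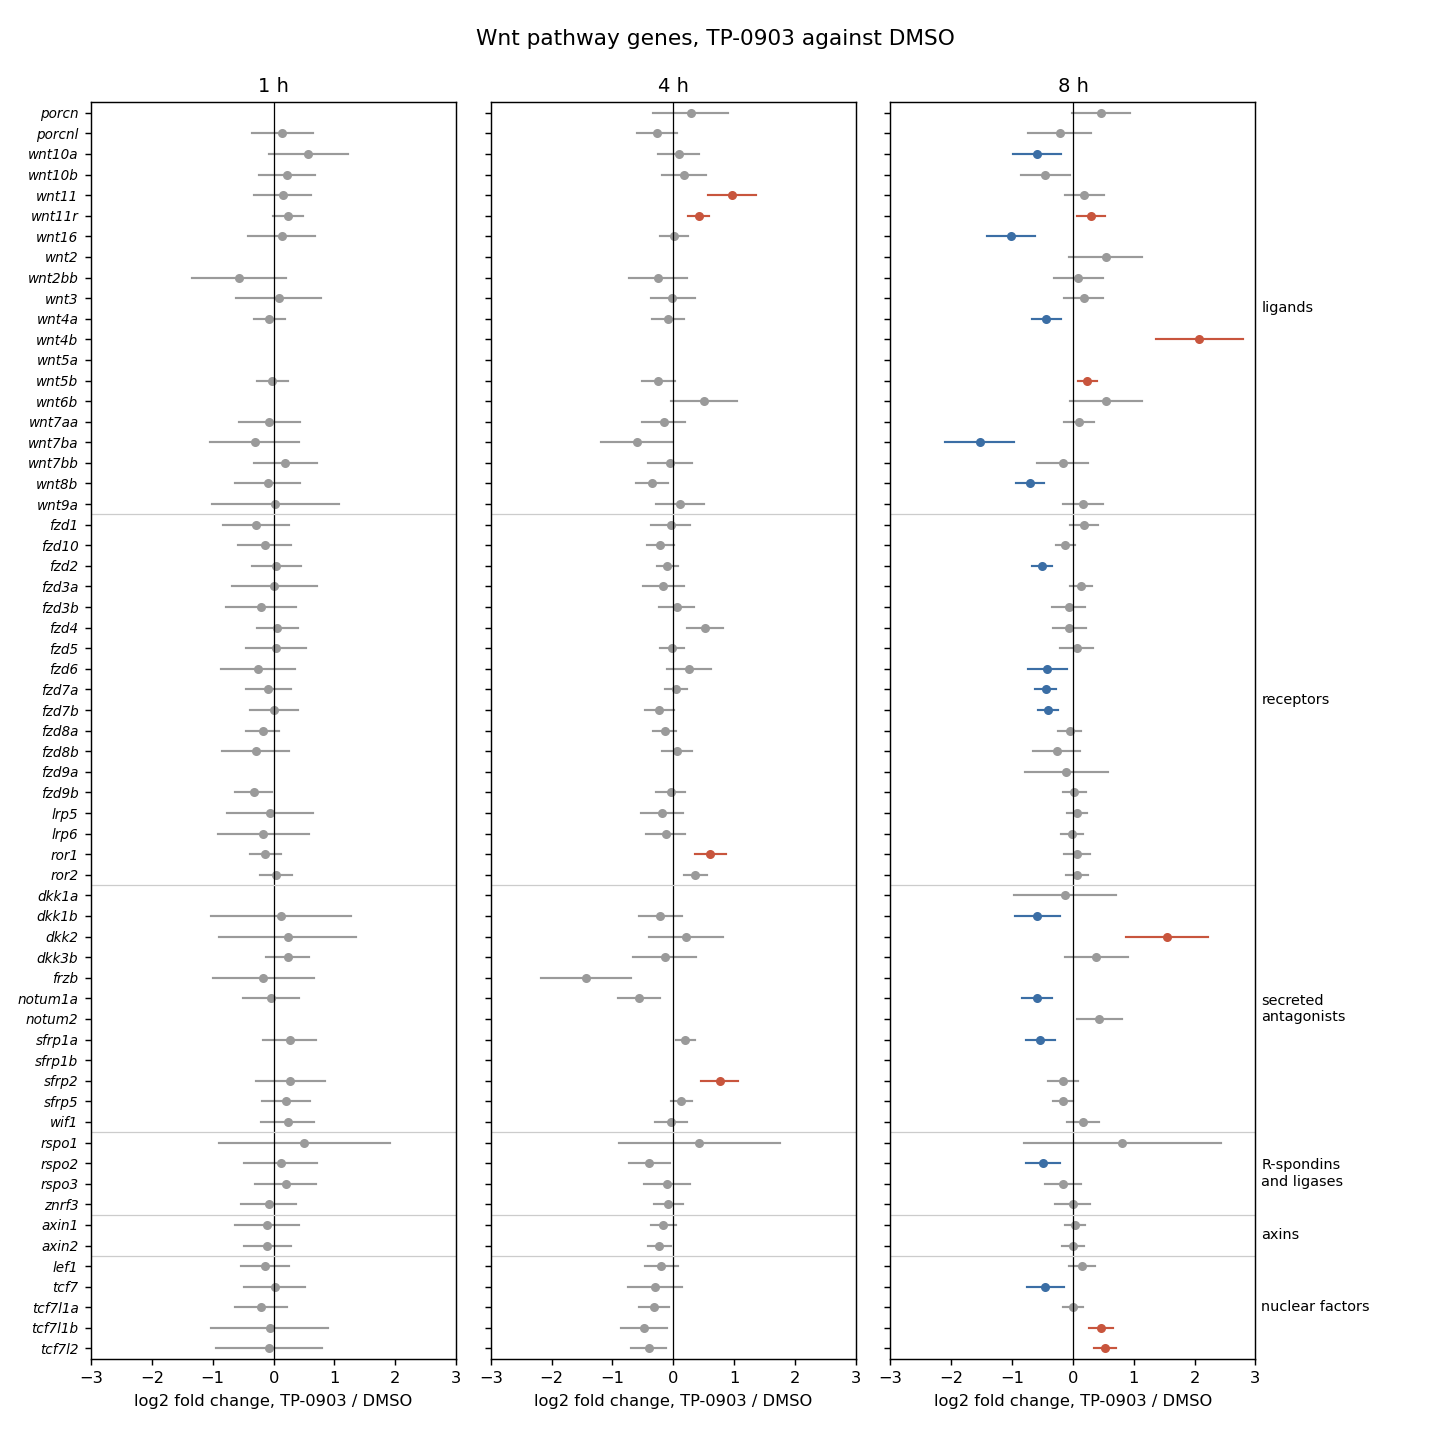
Log2 fold change of TP-0903 over DMSO for every tested member at 1, 4 and 8 h, grouped by role; points are edgeR estimates, lines 95% intervals, red higher and blue lower at an adjusted p under 0.05, grey not called. No member is coloured at 1 h, 4 are at 4 h and 20 at 8 h; genes without a point were not listed or did not pass the low-count filter.

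Among the ligands, wnt4b rose most and wnt7ba fell most. The gene wnt4b was listed only at 8 h and was scarce, with 0.395, 1.38, 0.441 and 0.546 CPM in DMSO and 3.27, 2.55, 3.01 and 3.13 CPM in TP-0903 libraries. These values rest on 24 reads in all DMSO and 96 in all TP-0903 libraries, the groups did not overlap, and the difference was 4.22-fold (log2 fold change 2.08, SE 0.34, adjusted p = 4.24e-04). Its paralogue wnt4a went the other way, from 19.9 to 25.5 CPM in DMSO to 14.7 to 17.5 CPM with TP-0903 (-0.44 on the log2 scale, adjusted p = 0.0103). For wnt7ba, a Wnt7 family ligand, the DMSO libraries held 3.42, 2.65, 2.98 and 3.27 CPM and the TP-0903 libraries 1.19, 1.33, 0.601 and 1.08 CPM. Its groups were well apart, and its level was 0.345 times that of DMSO (log2 fold change -1.54, SE 0.26, adjusted p = 6.81e-04), while its paralogue wnt7bb did not pass the test (-0.17, adjusted p = 0.556).

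Wnt16 is known in zebrafish for acting in the somites upstream of blood stem cell formation. Its gene was read at 12.1, 17.2, 15.9 and 21.9 CPM in DMSO and at 10.6, 6.66, 9.14 and 7.11 CPM with TP-0903, or 0.493 times the control level (log2 fold change -1.02, SE 0.19, adjusted p = 0.00104). The control libraries varied widely, but all of them exceeded all treated ones. The brain-expressed ligand gene wnt8b measured 20.5, 25.7, 25.4 and 22.9 CPM in DMSO and 14.4, 15.9, 13.1 and 14.5 CPM after TP-0903, again without overlap (log2 fold change -0.71, SE 0.11, adjusted p = 2.93e-04). Smaller calls were wnt10a, lower by 0.59, and wnt5b, a ligand of convergent extension, higher by 0.24 (log2 scale, adjusted p = 0.026 and 0.0222).

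The ligand gene wnt11r was again higher at 8 h, but its adjusted p of 0.0497 was at the threshold and the libraries overlapped, with 43.8, 53.8, 58.6 and 62.0 CPM in DMSO and 72.0, 71.0, 67.1 and 58.0 CPM with TP-0903. Its call was lost with DESeq2, with size factors of the RLE type, without the low-count filter, with a replicate block (adjusted p = 0.0807) and in 6 of 8 fits that left out a library. The gene wnt11, called at 4 h, no longer differed detectably, at 5.66 to 7.64 CPM in DMSO and 6.84 to 7.99 CPM with TP-0903 (log2 fold change 0.19, 95% interval -0.13 to 0.51). Per length, in reads scaled to gene length and library size (FPKM), wnt11r was the highest ligand gene in DMSO at 8 h (24.8 ± 3.73, SD, n = 4), above wnt5b (10.3 ± 0.346).

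Of the receptors, 4 Frizzled genes fell and 14 other genes were not called. Frizzled proteins are the transmembrane receptors that bind Wnts, and fzd7a was the member with the highest level per length in DMSO at 8 h, at 102.6 ± 11.8 FPKM (SD, n = 4). In CPM it measured 246, 291, 278 and 320 with DMSO and 209, 215, 209 and 197 with TP-0903. The treated libraries lay close together below all controls (log2 fold change -0.45, SE 0.08, adjusted p = 7.99e-04). Its paralogue fzd7b had a similar estimate, with 83.4, 103, 101 and 91.8 CPM against 71.0, 72.6, 73.0 and 68.5 CPM (-0.41, adjusted p = 0.00142). The most significant receptor was fzd2, read at 66.1, 68.5, 76.1 and 64.9 CPM in DMSO and at 47.7, 46.8, 48.6 and 51.2 CPM with TP-0903. No treated library reached a control (log2 fold change -0.50, SE 0.08, adjusted p = 2.54e-04). For fzd6, known for its part in planar polarity, the values were 12.9, 12.5, 15.2 and 11.9 CPM and 7.44, 11.1, 8.90 and 11.6 CPM (-0.42, adjusted p = 0.0472), a narrow gap whose call was lost in 5 of 8 fits that left out a library and with DESeq2.

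The co-receptor genes lrp5 and lrp6 and the Ror receptor genes were not called at 8 h. Their log2 fold changes were 0.07 for lrp5 (95% interval -0.10 to 0.23), -0.01 for lrp6 (-0.19 to 0.17), 0.07 for ror1 (-0.14 to 0.28) and 0.06 for ror2 (-0.11 to 0.24). For ror1 the interval at 8 h thus lay below its 4 h estimate of 0.61.

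Among the secreted antagonists, dkk2 rose and dkk1b, notum1a and sfrp1a fell. Dkk1 and Dkk2 proteins bind Lrp5 and Lrp6. The gene dkk2 held 0.658, 1.15, 1.76 and 3.16 CPM in DMSO and 5.95, 4.55, 4.93 and 4.94 CPM in TP-0903 libraries, a 2.92-fold difference without overlap that rests on 60 and 163 reads (log2 fold change 1.55, SE 0.31, adjusted p = 0.00213). The head inducer gene dkk1b went down, from 5.79, 6.56, 5.18 and 5.57 CPM to 3.57, 3.11, 4.33 and 4.34 CPM (-0.59, adjusted p = 0.021). Notum1a is an enzyme that removes the lipid from Wnt proteins. Its gene measured 14.2, 17.7, 16.2 and 18.1 CPM with DMSO and 10.9, 11.1, 11.5 and 10.4 CPM with TP-0903, a clear gap (-0.60, SE 0.12, adjusted p = 0.00154). At 4 h it had a similar estimate, -0.56, that did not pass the test (adjusted p = 0.222).

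The highest antagonist per length in DMSO at 8 h was sfrp1a, at 53.0 ± 7.01 FPKM (SD, n = 4), encoding another Wnt-binding protein. Its CPM values were 88.7, 108, 105 and 83.1 in DMSO and 75.3, 73.6, 61.3 and 55.2 with TP-0903 (-0.54, SE 0.11, adjusted p = 0.00244). At 4 h the same gene had been higher in every TP-0903 library, at 97.3 to 106.1 CPM against 83.7 to 91.6 CPM, though without passing the test (0.20, adjusted p = 0.411). The order of the groups was therefore opposite at the later time.

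**Figure D4:**
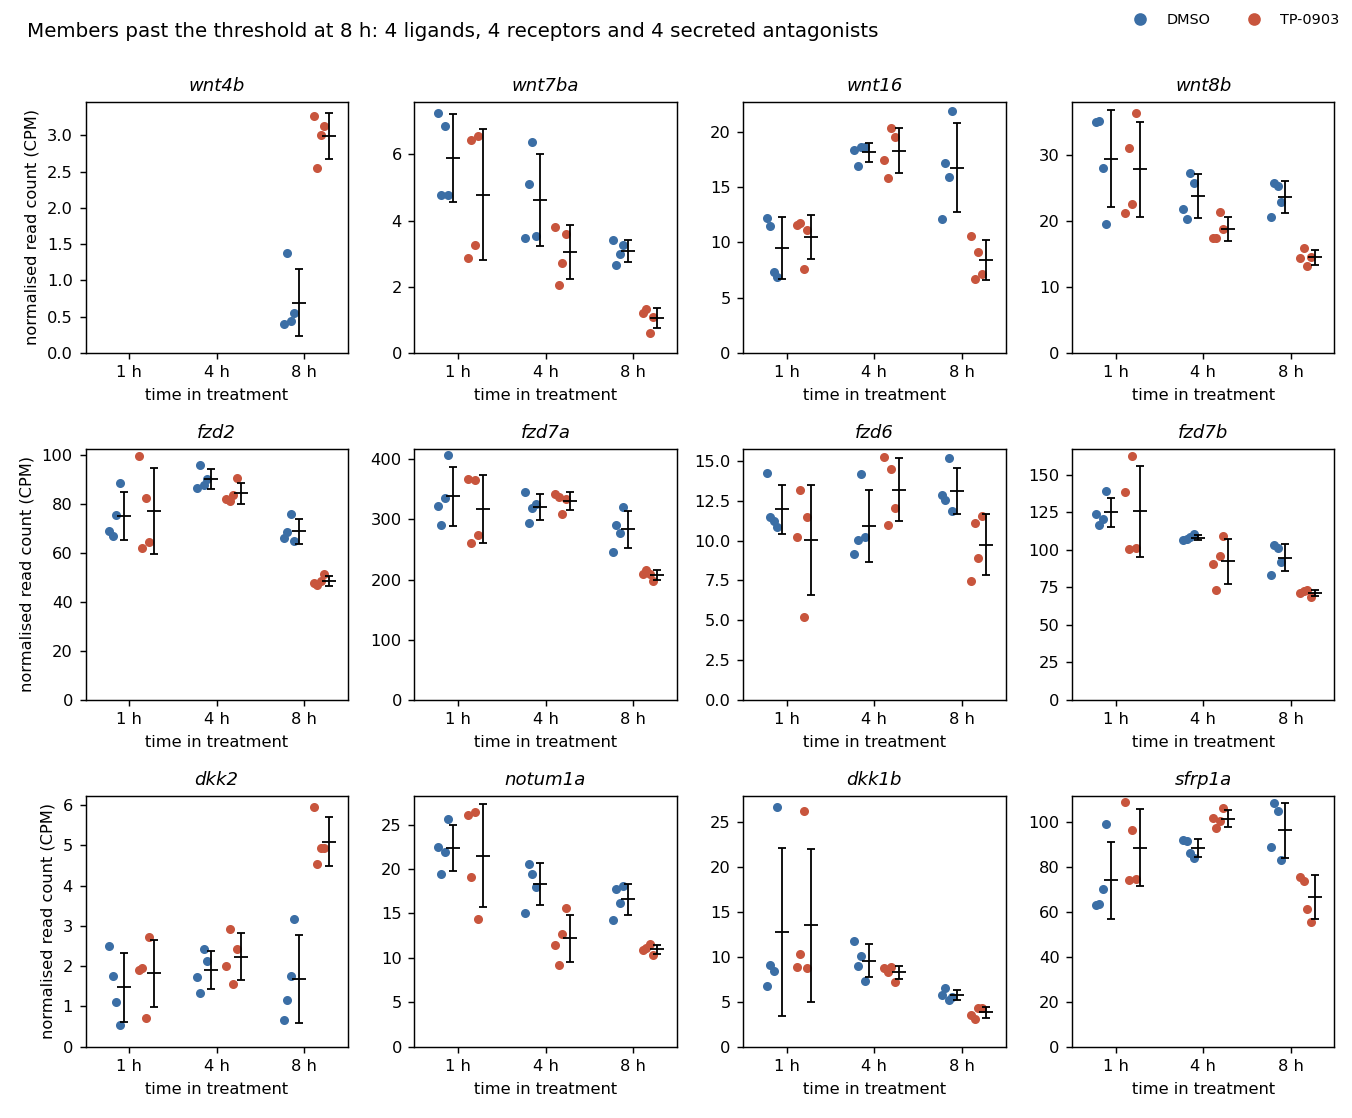
Normalised read count (CPM) of the 4 largest called changes at 8 h among ligands (top), receptors (middle) and secreted antagonists (bottom), at each time in treatment; points are libraries (blue DMSO, red TP-0903), black bars with whiskers mean and SD of 4 libraries. At 8 h the groups do not overlap in any of the 12 panels; wnt4b has no points at 1 h and 4 h because it was listed only at 8 h.

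The feedback genes of beta-catenin signalling did not move together at 8 h. The gene axin2 had 146, 172, 170 and 167 CPM in DMSO and 171, 183, 161 and 142 CPM with TP-0903, fully overlapping, with a log2 fold change of 0.00 and a 95% interval of -0.18 to 0.18. Its level per length was the higher of both axins in DMSO, 41.5 ± 3.35 FPKM, and axin1 was also not called (0.03, -0.13 to 0.19). The ligase gene znrf3, the highest of its group at 15.1 ± 2.62 FPKM, had an estimate of -0.01 (-0.29 to 0.28) and lef1 one of 0.15 (-0.06 to 0.37). In contrast notum1a and dkk1b were lower, as given above. The R-spondin gene rspo2 was also lower, with 15.9, 15.1, 14.2 and 16.0 CPM in DMSO and 8.63, 12.6, 12.03 and 9.76 CPM with TP-0903 (-0.50, SE 0.13, adjusted p = 0.0113). Its groups had not overlapped at 4 h either, in the same direction (-0.40, adjusted p = 0.451).

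Tcf and Lef proteins bind DNA at Wnt targets; Tcf7l1 and Tcf7l2 factors can repress these targets where beta-catenin is absent. Both tcf7l2 and tcf7l1b rose at 8 h. The gene tcf7l2 was read at 48.4, 44.6, 41.7 and 39.8 CPM in DMSO and at 66.5, 63.0, 60.0 and 61.5 CPM with TP-0903, and the groups did not overlap (log2 fold change 0.53, SE 0.08, adjusted p = 2.78e-04). For tcf7l1b the values were 65.3, 73.2, 59.7 and 72.6 CPM against 97.4, 105.0, 85.4 and 84.8 CPM, also without overlap (0.46, SE 0.09, adjusted p = 0.00194). The gene tcf7 fell, from 10.1, 10.2, 10.1 and 9.17 CPM to 6.40, 6.21, 7.46 and 8.80 CPM (-0.46, adjusted p = 0.0271), but its call was lost in 5 of 8 fits that left out a library. The most abundant nuclear factor gene per length, tcf7l1a (33.9 ± 2.13 FPKM in DMSO), stood at a log2 fold change of 0.00 (-0.17 to 0.17).

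**Figure D5:**
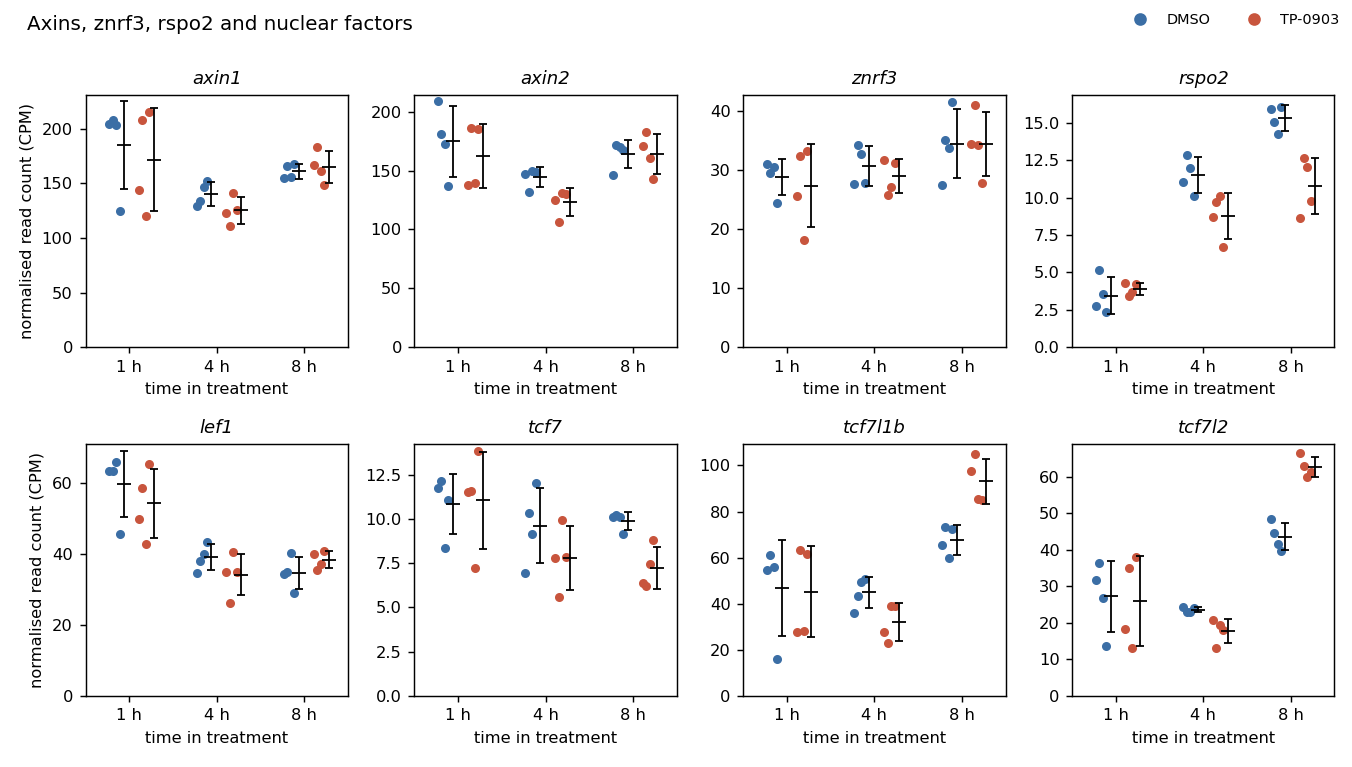
Normalised read count (CPM) of the axins, znrf3, rspo2 and 4 nuclear factor genes by time in treatment; points are libraries (blue DMSO, red TP-0903), black bars with whiskers mean and SD of 4 libraries. The axins, znrf3 and lef1 overlap at 8 h, whereas tcf7l1b and tcf7l2 lie above DMSO and rspo2 and tcf7 below.

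Of the 20 calls, 14 held in every alternative fit tried, and 6 (wnt5b, tcf7, dkk1b, fzd6, wnt11r and wnt10a) were lost in at least 4. With a replicate block the adjusted p was 0.0563 for wnt5b, 0.0523 for tcf7, 0.0707 for fzd6 and 0.0807 for wnt11r. Cell type markers were also read at 8 h, where the background was 28.9% of genes called, 15.4% higher and 13.5% lower. All 6 epidermis markers were lower (summed level 10860 to 12950 CPM with TP-0903 and 12900 to 16100 CPM with DMSO). Neuron markers were higher for 3 of 5 genes (439.7 to 520.3 against 364.5 to 396.4 CPM), and skeletal muscle markers were higher for 4 and lower for 2 of 8 genes (5107 to 6029 against 3887 to 4767 CPM). The lower muscle genes were myog (log2 fold change -2.57) and myod1 (-0.47). The summed muscle level includes actc1b and acta1b, which were not called. Of the tailbud markers 2 were testable and cdx4 was lower, at 2.65 to 3.97 against 10.5 to 19.2 CPM. Dorsal neural tube and crest markers were lower for 3 of 8 genes. Of 6 midbrain-hindbrain boundary markers fgf8a alone was called, now lower (log2 fold change -0.44, adjusted p = 0.00991 by edgeR), opposite to its call at 4 h. The part of these tissues in the Wnt gene changes was not tested.

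To ask whether the response itself changed with time, the log2 fold changes were compared between time points in a fit of 16 libraries. Between 1 h and 4 h no member of 54 passed (background 0%), with 5 at an unadjusted p under 0.05 (background 2.11%); DESeq2 called 1, ror1. Between 4 h and 8 h, 10 of 54 members (18.5%) passed, beside a background of 14.2%, 3 more positive (background 6.43%) and 7 more negative (background 7.74%). The change with TP-0903 was more negative at 8 h for wnt16 (difference -1.01, SE 0.23), sfrp2 (-0.91, SE 0.18), wnt11 (-0.75, SE 0.23), sfrp1a (-0.71, SE 0.15), ror1 (-0.51, SE 0.15), fzd7a (-0.47, SE 0.12) and fzd2 (-0.39, SE 0.10). It was more positive for tcf7l1b (0.96, SE 0.20), tcf7l2 (0.95, SE 0.15) and wnt5b (0.50, SE 0.14), with adjusted p-values over all 10 from 4.95e-04 for tcf7l2 to 0.0384 for wnt11. By each time point's own test, wnt11, sfrp2 and ror1 were higher at 4 h and not called at 8 h, whereas fzd2, fzd7a and wnt16 were lower at 8 h and not called at 4 h. For sfrp1a, tcf7l1b, tcf7l2 and wnt5b the estimates had opposite signs at 4 h and 8 h. That of wnt5b was -0.24 and not called at 4 h, but higher and called at 8 h. The 4 h estimates of fzd7a (0.04) and wnt16 (0.01) were small and positive. The difference for wnt11 passed in 5 of the 16 fits that left out a library, with a largest adjusted p of 0.0829, and was also lost with a replicate block (adjusted p = 0.0655) and with libraries thinned to the smallest total. The difference for ror1 passed in 7 of 16, with a largest adjusted p of 0.0699, and was lost with thinning. That for wnt5b passed in 13 of 16 and that for wnt16 in all 16, and both were lost with thinning.

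Changes with stage in DMSO embryos give the background on which these differences lie. From 1 h to 4 h, 15 of 54 members (27.8%; background 19.1%) changed, 10 up (background 10.8%) and 5 down (background 8.27%). The unadjusted p was under 0.05 for 18 members, beside a background of 34.3%. The largest rises were porcn, the acyltransferase gene that equips Wnts with their lipid (log2 fold change 1.78 on few reads), rspo2 (1.69) and the receptor gene fzd1 (1.12), and the largest falls were fzd8b (-1.85), frzb (-1.74) and wnt11 (-1.17). The gene porcn passed the low-count filter here only through the 4 h libraries, which limits what its rise and its call can show. It was testable in 6 of the 8 fits that left out a library and was called in 4 of them. Without DMSO replicate 4 at 1 h, 24 of 55 members were called, 12 up and 12 down. The genes called in all also rose in that fit, from 3042 to 7627. Without DMSO replicate 3 at 1 h, or without DMSO replicate 1 at 4 h, 9 members were called, beside 1720 and 1817 genes in all. From 4 h to 8 h, 31 of 54 (57.4%; background 51.9%) changed, 16 up and 15 down, led by wnt7aa (1.10), wnt7bb (0.89) and tcf7l2 (0.88) and by fzd8b (-1.31), dkk3b (-1.05) and wnt5b (-1.004), in libraries that also differ in tailbud markers and sequencing request. The receptor gene fzd8b thus fell at both steps, from 48.6 ± 7.54 CPM at 1 h to 13.0 ± 1.00 CPM at 4 h and 5.24 ± 1.01 CPM at 8 h (SD, n = 4).

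Other genes of the pathway were read as 3 lists. Of the core transduction list, 0 of 16 tested genes were called at 4 h by edgeR (background 0.740%), and 2 rose and 4 fell of 17 at 8 h (background 28.9%), with the destruction complex gene apc2 higher (0.94) and wls, which escorts Wnts to the cell surface, lower (-0.40). In that list 1 of the 2 identifiers named csnk1a1, a beta-catenin kinase, was also lower (-0.58). Its call was lost without DMSO replicate 1, TP-0903 replicate 1 or TP-0903 replicate 2. The remaining calls were apc, higher (0.36), and bcl9l (-0.40) and the beta-catenin gene ctnnb1 (-0.34), lower. The second beta-catenin gene, ctnnb2, was not called (0.06). Of 16 planar polarity genes, prickle1b alone was called at 4 h, at 95.4 to 109 CPM in DMSO and 132 to 148 CPM with TP-0903 (0.46, adjusted p = 0.0222). That call was kept in 2 of the 8 fits that left out a library, being lost without any DMSO library and without TP-0903 replicate 1 or 3, which leaves 0 calls in the list. At 8 h, 3 of 17 were higher (background 15.4%) and 2 lower (background 13.5%), close to the share over all genes. The largest called changes were in celsr3 (0.90), 1 of the 2 identifiers named celsr2 (0.50) and daam1a (0.46).

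Of the targets and other feedback genes, 2 rose and 1 fell among 17 at 4 h (background 0.740%). The risen genes were dact2 and dact1, whose proteins bind Dishevelled. The gene dact2 measured 79.2, 78.5, 78.2 and 73.5 CPM in DMSO and 158, 135, 152 and 130 CPM with TP-0903 without overlap (log2 fold change 0.90, SE 0.09, adjusted p = 5.9e-04), and dact1 rose by 0.39 (adjusted p = 0.0286). The fallen gene was msgn1, a presomitic mesoderm gene that is also on the tailbud list (-1.58, adjusted p = 0.016). When a library was left out, dact2 was called in 8 of 8 fits, msgn1 in 6, being lost without DMSO replicate 3 or 4, and dact1 in 1, without TP-0903 replicate 2. The list then held 1 to 3 calls, and 4 with a replicate block, which added sp5l. At 1 h the groups for dact2 already did not overlap, at 102 to 142 CPM against 183 to 194 CPM, nor did those for prickle1b, at 110 to 115 CPM against 170 to 201 CPM, and both were called at 1 h by DESeq2 but not by edgeR (adjusted p = 0.847 for dact2 and 0.626 for prickle1b). At 8 h, 2 of 14 were higher and 4 lower (background 28.9%). The largest changes were in cdx4 (-2.31), which like msgn1 is also on the tailbud list, dact1 (0.52) and sp5a (-0.51). The gene dact2 no longer differed detectably (0.03, adjusted p = 0.868 by edgeR).

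Members not named above were low or did not pass the test. Outside the low-count filter were porcn, wnt5a and wnt6b at 1 h, wnt5a at 4 h and frzb and sfrp1b at 8 h, and 6 members (dkk1a, fzd9a, notum2, sfrp1b, wnt2 and wnt4b) were listed only at 8 h, whereas wnt5a was listed only at 1 h and 4 h. The ligand gene wnt10b was not called at 8 h although its groups did not overlap (log2 fold change -0.45, adjusted p = 0.0875). In all, groups did not overlap for 20 of 58 members at 8 h, beside a background of 28.9%. The R-spondin gene rspo1 varied widely between pools of 1 group, from 0.149 to 12.4 CPM among the TP-0903 libraries at 8 h and from 0.587 to 9.08 CPM among those at 4 h, so that its estimate of 0.81 at 8 h carried an SE of 0.76.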

How the data were processed

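Stranded, rRNA-depleted (Ribo-Zero) libraries were read as single 50-cycle reads. The authors aligned them with Novoalign (version 2.08.03 per the labels) to zv9 with splice junctions and deposited read counts per Ensembl gene, made with USeq, in 1 table per time point. The authors also deposited FPKM values (counts scaled to gene length and library total), used here only to compare levels between genes. Their own fold change and FDR columns, from DESeq2 (version 1.4.5), were not used.

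Counts were fitted per time point with edgeR 4.0.16 (R 4.3.3; filterByExpr, TMM, quasi-likelihood test), with Benjamini-Hochberg adjustment over all genes tested and a threshold of 0.05. CPM are TMM-scaled. Differences between time points were interaction terms. The fits were also run on simulated counts drawn from their own dispersions, with planted changes larger than most of those given here. Such runs do not show how the fits treat smaller changes or scarce genes. Members and lists were chosen with earlier results of these data known. Named with values were all called members, the highest member per length in each role, the feedback genes and the largest changes with stage. Alternatives were DESeq2 1.42.0, RLE size factors, no filter, a replicate block, thinning to the smallest total, leaving out each library and leaving out both 1 h libraries that stood apart.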

Additional observations from a re-analysis of the deposited data

Results flagged for a closer look

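In 4 of 48 groups of libraries tested for a single distant value, the gap of 1 library to its nearest neighbour as a share of the group's range exceeded Dixon's critical value for 4 libraries, where chance gives about 2.4. These were wnt11r in TP-0903 replicate 3 at 4 h (0.847), sfrp2 in DMSO replicate 3 at 4 h (0.853), wnt4b in DMSO replicate 2 at 8 h (0.847) and tcf7 in DMSO replicate 4 at 8 h (0.894).

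By the interaction test of edgeR, 10 members responded unlike at 4 h and 8 h. The log2 fold change at 8 h minus that at 4 h was -1.01 for wnt16, -0.91 for sfrp2, -0.75 for wnt11, -0.71 for sfrp1a, -0.51 for ror1, -0.47 for fzd7a, -0.39 for fzd2, 0.50 for wnt5b, 0.95 for tcf7l2 and 0.96 for tcf7l1b. The 8 h libraries nearly lacked tailbud markers in both treatments and carry another request number, and these cannot be told apart from time in treatment.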

How the results depend on the processing

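No result changed direction under any alternative, and of the values of single genes 587 kept their side of the threshold and 94 lost it. At 4 h, thinning all libraries to the smallest total left 2 calls, and fits that left out 1 library gave 0 to 3. At 8 h those fits gave 15 to 20 calls. For the difference between 1 h and 4 h DESeq2 called 1 member. For that between 4 h and 8 h thinning left 6 calls, and leaving out a library gave 8 to 11. For DMSO at 4 h against 1 h, leaving out 1 library gave 9 to 24 calls. The 24 came without DMSO replicate 4 at 1 h, when 7627 genes were called in all, against 3042 in the main fit. Of the libraries that stood apart only that one enters this comparison, so leaving out both is the same fit. For DMSO at 8 h against 4 h leaving out a library gave 26 to 29. The causes were not tested.

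The labels give no shared origin for libraries of 1 number, and at no time point did every same-numbered pair correlate above 0.1: the correlation of same-numbered libraries was -0.73 to 0.602 at 1 h, 0.079 to 0.44 at 4 h and -0.084 to 0.057 at 8 h. At 4 h all 4 correlations were positive and the block raised the calls over all genes from 118 to 223. Replicates 1 and 2 lay apart from replicates 3 and 4 in both treatments at 4 h, along an axis that held 37.5% of the variance within groups. With a replicate block, 0 members were called at 1 h, 4 at 4 h, 16 at 8 h, 0 and 10 for the differences between 1 h and 4 h and between 4 h and 8 h (with fzd4 in place of wnt11), and 11 and 27 for the DMSO comparisons. Low reads limit wnt4b, dkk2, wnt7ba, frzb and porcn.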
